A study of Mus musculus with 8 samples.

Results

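LSD1, the product of *Kdm1a*, was examined together with the genes that encode its partners in the CoREST complex. The 9 genes were chosen by name, as known subunits or associated proteins of this complex, and each was found as 1 row of the 27041 rows of the deposited count table. CoREST is a corepressor complex that removes active marks from histone H3. LSD1 takes methyl groups off lysine 4, HDAC1 or HDAC2 takes acetyl groups off histone tails, and a scaffold protein of the RCOR family holds the enzymes together. Factors such as REST bring the complex to neuronal genes in cells that are not neurons. In muscle, LSD1 has been studied in fiber regeneration and in the response to glucocorticoids.

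RNA-seq libraries of skeletal muscle, named in the study as gastrocnemius, came from 9-week-old male C57BL/6J mice. Control mice (Ctrl) were LSD1 L2/L2, with *Lsd1* exon 1 between LoxP sites and no Cre, and LSD1skm-/- mice were HSA-Cre/LSD1 L2/L2, so both groups carried the floxed allele. HSA-Cre is active in myofibers, and other cells of the muscle keep the floxed, undeleted allele. The labels describe 8 libraries, of which 6 have counts, 4 Ctrl and 2 LSD1skm-/-, and LSD1skm-/- replicates 3 and 4 were not analysed here. The labels call them separate samples and say no more about separate animals, so p-values measure the spread between these samples, which may be technical. The depth per library was 32616912 to 41278769 counts for Ctrl, and 30654828 and 37788092 counts for LSD1skm-/-. Reads were counted per gene by the authors, and levels are given here as CPM after TMM scaling between libraries. CPM is the reads of a gene relative to the reads of its library in genes with a mean count above 50.

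*Kdm1a* lies on the minus strand at chr4:136550540-136602723 (GRCm38). In the transcript Kdm1a-203, with 19 exons and 3008 bases, exon 1 spans chr4:136602232-136602723, and its 492 bases make up 16.4% of the transcript. Exon 1 holds the start codon and 354 of the 2559 coding bases, or 13.8%. The first 300 coding bases, at chr4:136602286-136602585 on the minus strand, are printed 5′ to 3′ because they lie in the exon that Cre removes, with the start codon in capitals.
Kdm1a exon 1, coding start: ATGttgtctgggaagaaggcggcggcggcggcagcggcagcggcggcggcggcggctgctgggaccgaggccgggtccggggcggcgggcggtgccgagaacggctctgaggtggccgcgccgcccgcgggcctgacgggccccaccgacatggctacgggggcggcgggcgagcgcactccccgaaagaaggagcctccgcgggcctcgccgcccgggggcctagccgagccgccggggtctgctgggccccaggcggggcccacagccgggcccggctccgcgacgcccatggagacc
G and C made up 79.4% of the coding bases of exon 1 and 47.4% of the other coding bases. The table gives 1 count per gene, so reads from exon 1 could not be separated from those of the other exons.

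The targeted gene went with the label in 5 libraries and against it in 1. *Kdm1a* had 793, 713 and 968 counts in Ctrl replicates 1, 2 and 3, and 160 counts in the library labelled Ctrl replicate 4. The LSD1skm-/- libraries had 94 and 131 counts. On the CPM scale these were 22.9, 22.0, 28.1 and 3.66 in Ctrl, and 2.96 and 3.48 in LSD1skm-/- muscle. The library labelled Ctrl replicate 4 thus lay at 15.04% of the mean of the other Ctrl libraries, next to the LSD1skm-/- mean, which lay at 13.2%. Every comparison was therefore made by the labels and again without this library.

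By the labels, *Kdm1a* averaged 19.2 ± 10.7 CPM (SD, n = 4) in Ctrl and 3.22 ± 0.368 CPM (SD, n = 2) in LSD1skm-/- muscle. The log2 fold change was -2.56 ± 0.740 (SE), and the adjusted p of edgeR's quasi-likelihood test was 0.557. Both LSD1skm-/- libraries were still below every Ctrl library, which held for 8.02% of all genes tested. Without the library labelled Ctrl replicate 4, the Ctrl mean was 24.3 ± 3.27 CPM (SD, n = 3), and *Kdm1a* fell by 2.91 ± 0.171 (SE) on the log2 scale. The adjusted p of edgeR was 0.000579, where 1.02% of all genes tested were called lower, and the 95% interval of the ratio ran from 0.101 to 0.176. That library was set aside for its *Kdm1a* level, so this p and interval describe *Kdm1a* after a choice made on the same values. They are no independent test of it. The remaining *Kdm1a* reads cannot be assigned to myofibers or to other cells, since in bulk muscle fewer cells of a type and less RNA per cell cannot be told apart.

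None of the partners passed the test in either comparison. *Kdm1a* was called without the library labelled Ctrl replicate 4, which had been set aside for its *Kdm1a* level. Of the 9 genes, 8 had a mean count above 50 and were tested, and *Hdac1* was below that limit. By the labels, 0 of the 7 tested partners were called by edgeR at an adjusted p under 0.05, 0 at an unadjusted p under 0.05 and 0 by DESeq2. Over all 11364 genes tested, 0% were called at the adjusted and 8.9% at the unadjusted threshold, and DESeq2 called 0.405%. The same 3 counts were again 0 of 7 without the library labelled Ctrl replicate 4, where 5.39% of all genes tested were called at the adjusted and 20.2% at the unadjusted threshold, and DESeq2 called 9.29%. *Kdm1a* was under the unadjusted threshold in both comparisons, also with a fold above 1.3 or below 0.77 asked for, which 15.2% of all genes met without that library and 6.31% by the labels. The median log2 fold change of the 7 partners was 0.015 by the labels and 0.042 without that library, beside -0.0077 and -0.0058 over all genes tested.

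**Figure D1:**
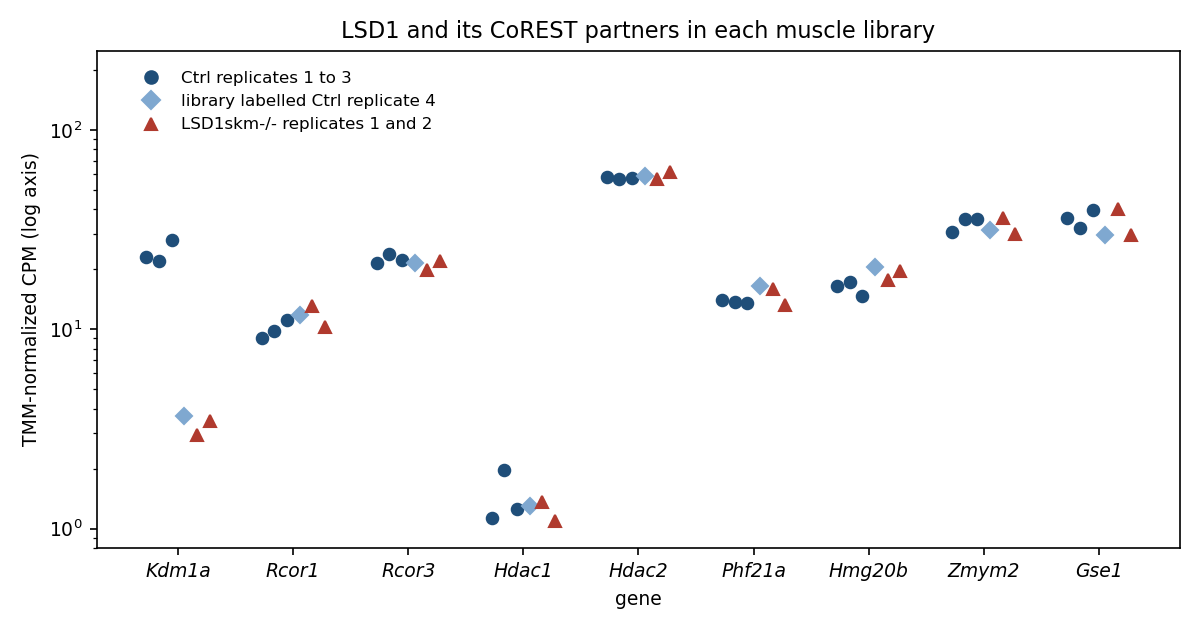
TMM-normalized CPM (log axis) of *Kdm1a* and its 8 partners, with 1 point per library: circles for Ctrl replicates 1 to 3, diamonds for the library labelled Ctrl replicate 4 and triangles for LSD1skm-/- replicates 1 and 2. *Kdm1a* is near 3 CPM in the diamond and both triangles and at 22.0 to 28.1 CPM in the circles, while the triangles of the partners lie within or close to the range of the circles.

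The scaffold genes *Rcor1* and *Rcor3* encode proteins that bind LSD1 and a histone deacetylase at once. *Rcor1*, at chr12:111039351-111115901, was at 9.00, 9.77, 11.1 and 11.8 CPM in Ctrl and at 13.1 and 10.3 CPM in LSD1skm-/- muscle. The groups overlapped, because LSD1skm-/- replicate 2 lay within the Ctrl range. Its log2 fold change was 0.17 ± 0.161 (SE, edgeR adjusted p = 0.741) by the labels. Without the library labelled Ctrl replicate 4 it was 0.23 ± 0.155 (SE, edgeR adjusted p = 0.454), and the 95% interval of the ratio, from 0.916 to 1.51, had the highest upper bound among the tested partners. *Rcor3*, at chr1:192098546-192138062, was at 21.5, 24.0, 22.4 and 21.5 CPM in Ctrl and at 19.9 and 22.1 CPM in LSD1skm-/- muscle. Only LSD1skm-/- replicate 1 lay below every Ctrl library. The log2 fold change of *Rcor3* was -0.089 ± 0.105 (SE, edgeR adjusted p = 0.790), and -0.11 ± 0.109 (SE, edgeR adjusted p = 0.641) without the library labelled Ctrl replicate 4.

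The balance of the scaffolds was also compared within libraries, where scaling between libraries plays no part. The log2 ratio of *Rcor1* to *Rcor3* counts was -1.26, -1.296, -1.01 and -0.86 in Ctrl and -0.60 and -1.10 in LSD1skm-/- libraries. LSD1skm-/- replicate 1 had the highest ratio, and replicate 2 lay inside the Ctrl range. The difference of the means was 0.26 (exact two-sided permutation p = 0.333, smallest possible 0.0667) by the labels. It was 0.34 (exact two-sided permutation p = 0.3, smallest possible 0.1) without the library labelled Ctrl replicate 4, so neither design could reach 0.05. LSD1skm-/- replicate 1 carried most of the difference: by the labels it was 0.0090 without that replicate and 0.50 without replicate 2, and without the library labelled Ctrl replicate 4 as well it was 0.091 and 0.58.

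*Hdac1* and *Hdac2* encode the class I deacetylases of the complex. *Hdac2*, at chr10:36974544-37001889, was at 58.2, 57.0, 57.4 and 58.5 CPM in Ctrl and at 56.7 and 61.6 CPM in LSD1skm-/- muscle. The Ctrl libraries lay close together, with an SD of 0.713 CPM, and the LSD1skm-/- libraries lay just below and above them. Its log2 fold change was 0.034 ± 0.0907 (SE, edgeR adjusted p = 0.912), and 0.042 ± 0.0931 (SE, edgeR adjusted p = 0.839) without the library labelled Ctrl replicate 4. The 95% interval of the ratio in the second comparison ran from 0.885 to 1.20. *Hdac1*, at chr4:129516104-129542713, had far fewer reads: 39, 64, 43 and 57 counts in Ctrl and 43 and 41 counts in LSD1skm-/- libraries, a mean of 47.8. All 6 values overlapped between groups. In a fit of every row with at least 1 count, its log2 fold change was -0.22 ± 0.350 (SE, edgeR adjusted p = 0.841), and -0.25 ± 0.318 (SE, edgeR adjusted p = 0.804) without the library labelled Ctrl replicate 4. The 95% interval of its ratio, from 0.546 to 1.296, was wider than those of the tested partners, so a change of either sign within it was not detectable at this depth. The log2 ratio of *Hdac1* to *Hdac2* counts was -5.67, -4.84, -5.51 and -5.48 in Ctrl and -5.37 and -5.80 in LSD1skm-/- libraries, with exact two-sided permutation p = 0.6 by the labels and 0.7 without the library labelled Ctrl replicate 4.

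The low *Hdac1* level has to be read with its copies in the genome. Of the 50-base stretches in its longest coding transcript, as long as the reads, 58.7% also occur in another annotated gene, and 56.4% occur in the processed pseudogene *Gm10093* (chr17:78491582-78493025, plus strand). The authors kept uniquely aligned reads, and *Gm10093* is no row of the table used here. How many *Hdac1* reads were set aside was not tested. A stretch of the coding sequence starting at coding base 778 of *Hdac1* shows the point: it lies at chr4:129519063-129519112 (minus strand) in *Hdac1*, at chr17:78492359-78492408 (plus strand) in *Gm10093* and at chr10:36993824-36993873 (plus strand) in *Hdac2*. The stretches are printed 5′ to 3′, and capitals mark the bases that differ from *Hdac1*.
Hdac1: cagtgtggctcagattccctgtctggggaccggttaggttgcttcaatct
Gm10093: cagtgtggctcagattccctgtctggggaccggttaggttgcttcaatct
Hdac2: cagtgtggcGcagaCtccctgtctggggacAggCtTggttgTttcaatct
The pseudogene matches *Hdac1* at every base, and *Hdac2* differs at 6 of 50. No 50-base stretch of the longest coding transcript of *Hdac2* occurs in another annotated gene, and the rest of the genome was not searched. How far the shared stretches lower the *Hdac1* level was not tested. The ratio of *Hdac1* to *Hdac2* counts was therefore used only to compare libraries, and no order of their levels is given.

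**Figure D2:**
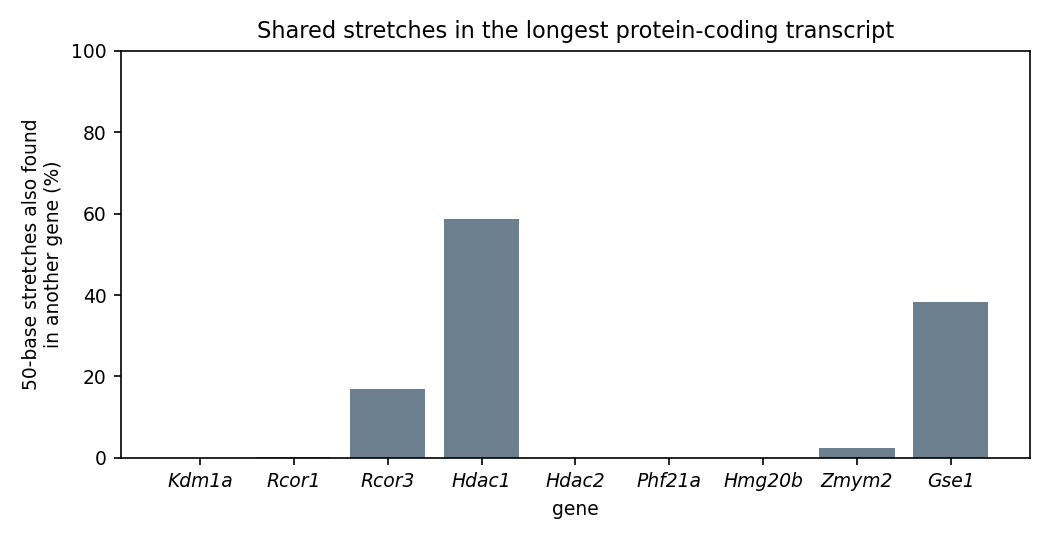
Percent of the 50-base stretches in the longest protein-coding transcript of each gene that also occur in another annotated gene of GENCODE vM21, on either strand. Bars start at 0, and *Hdac1* (58.7%), *Gse1* (38.3%) and *Rcor3* (16.8%) stand above the other genes, which are at 2.32% or less.

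*Phf21a* and *Hmg20b* encode the chromatin-binding subunits BHC80, which reads unmethylated lysine 4 of histone H3, and BRAF35, which has a high mobility group domain. *Phf21a*, at chr2:92093117-92364666, was at 14.1, 13.8, 13.5 and 16.6 CPM in Ctrl and at 16.0 and 13.3 CPM in LSD1skm-/- muscle. The library labelled Ctrl replicate 4 and LSD1skm-/- replicate 1 were the high samples, and LSD1skm-/- replicate 2 was the lowest. The log2 fold change was 0.015 ± 0.136 (SE, edgeR adjusted p = 0.978), and 0.089 ± 0.123 (SE, edgeR adjusted p = 0.738) without the library labelled Ctrl replicate 4. *Hmg20b*, at chr10:81346048-81350480, was at 16.5, 17.3, 14.6 and 20.5 CPM in Ctrl and at 17.6 and 19.5 CPM in LSD1skm-/- muscle. The highest value was again in the library labelled Ctrl replicate 4. Its log2 fold change was 0.11 ± 0.148 (SE, edgeR adjusted p = 0.824).

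*Hmg20b* became, without the library labelled Ctrl replicate 4, the only partner whose groups did not overlap, with 16.1 ± 1.39 CPM (SD, n = 3) in Ctrl and 18.5 ± 1.37 CPM (SD, n = 2) in LSD1skm-/- muscle. Its log2 fold change of 0.20 ± 0.121 (SE) did not pass the test (edgeR adjusted p = 0.405), and the 95% interval of the ratio ran from 0.947 to 1.40. With *Kdm1a*, 2 of the 8 tested genes did not overlap between groups in this comparison, where 37.7% of all genes tested did not, and 20.3% lay above every Ctrl library as *Hmg20b* did. By the labels it was 1 of 8, *Kdm1a*, beside 17.8% of all genes tested.

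*Zmym2* and *Gse1* encode proteins found with the complex: ZMYM2 is a zinc finger protein with MYM domains, and GSE1 is a coiled-coil protein that copurifies with LSD1 and the deacetylases. *Zmym2*, at chr14:56886653-56962701, was at 30.9, 35.7, 35.7 and 31.5 CPM in Ctrl and at 36.1 and 30.0 CPM in LSD1skm-/- muscle. The LSD1skm-/- libraries were the highest and the lowest of the 6. The log2 fold change was -0.016 ± 0.122 (SE, edgeR adjusted p = 0.973), and -0.043 ± 0.127 (SE, edgeR adjusted p = 0.883) without the library labelled Ctrl replicate 4. *Gse1*, at chr8:120228456-120581390, was at 36.1, 32.4, 39.9 and 29.8 CPM in Ctrl and at 40.0 and 29.6 CPM in LSD1skm-/- muscle, so its LSD1skm-/- libraries too stood at both ends of the range. The log2 fold change of *Gse1* was 0.012 ± 0.163 (SE, edgeR adjusted p = 0.984), and -0.051 ± 0.157 (SE, edgeR adjusted p = 0.888) without the library labelled Ctrl replicate 4. *Gse1* shares 2758 exonic bases, 26.6% of its exons, with *Gins2* on the opposite strand, which had 3 to 13 counts per library. The kit keeps the strand of the RNA, and whether the counting used it is not given in the sources used here. *Rcor3* shares 667 exonic bases, 4.90% of its exons, with the antisense gene *Gm26879*, which has no counts here. These hold 16.5% of the 50-base stretches in the longest coding transcript of *Rcor3*.

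Without the library labelled Ctrl replicate 4, the 95% intervals of the ratio for the 7 tested partners lay between a lower bound of 0.748 (*Gse1*) and an upper bound of 1.51 (*Rcor1*). The interval of *Kdm1a* lay apart from all of them, in a comparison that set a library aside for its *Kdm1a* level. A missed threshold does not show that a partner was equal in both groups, and these intervals give the changes that 3 against 2 libraries could not exclude.

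**Figure D3:**
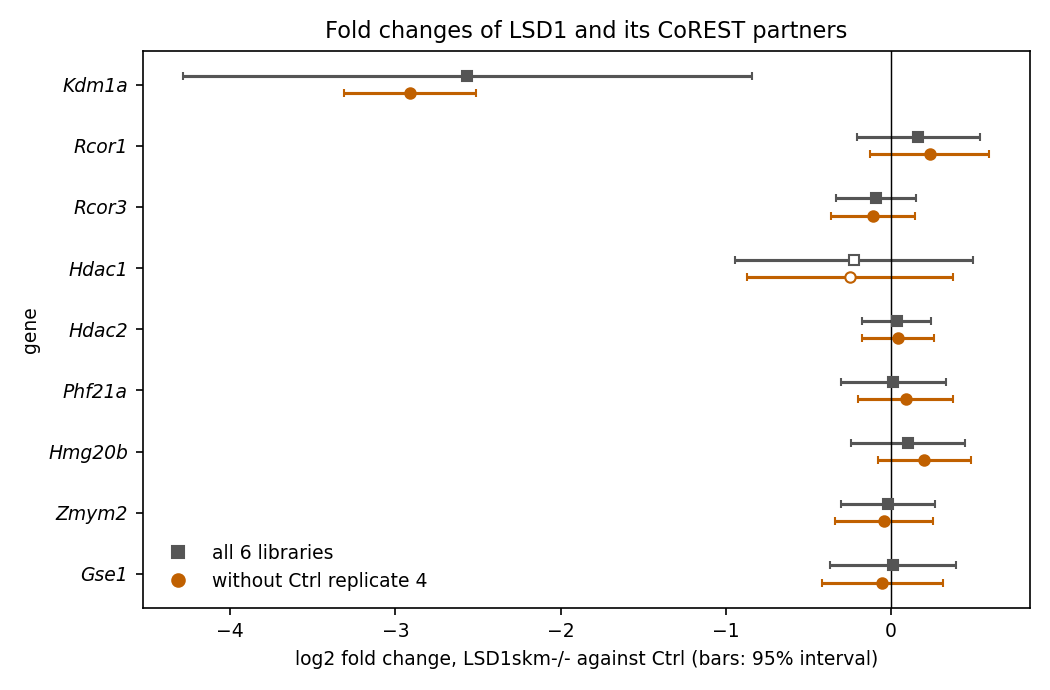
Log2 fold change of LSD1skm-/- against Ctrl with its 95% interval from edgeR, for all 6 libraries (squares) and without the library labelled Ctrl replicate 4 (circles). Open symbols mark *Hdac1*, taken from the fit of every row with at least 1 count. The *Kdm1a* interval ran from -4.29 to -0.84 with all 6 libraries and from -3.31 to -2.51 without that library, and every partner interval crosses 0.

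Levels of different genes were compared only per length, as CPM per kilobase of the longest coding transcript, with the median and range over the 6 libraries. *Hdac1*, at 0.625, was not placed in the order because of its shared stretches. *Gse1* and *Rcor3* were placed, although 38.3% and 16.8% of their stretches also occur in another gene. Whether this lowered their levels was not tested. Of the other 8 genes, *Hdac2* was highest at 17.8 (17.4 to 19.0), followed by *Hmg20b* at 10.8 (9.01 to 12.7) and *Rcor3* at 5.75 (5.25 to 6.33). The range of *Hdac2* lay apart from all others. That of *Hmg20b* lay apart from *Rcor3*, and that of *Rcor3* overlapped *Gse1* (4.16 to 5.61), which was the higher of the pair in LSD1skm-/- replicate 1. *Zmym2* at 4.82 and *Gse1* at 4.80 could not be ordered, since each was above the other in 3 libraries. *Kdm1a* averaged 8.03 in Ctrl replicates 1 to 3, between the means of *Hmg20b* (9.96) and *Rcor3* (5.97) in these libraries. In Ctrl replicate 3, however, *Kdm1a* was above *Hmg20b* (9.27 against 9.01). *Kdm1a* ranged from 0.978 to 1.21 in the other libraries, below *Rcor1*. *Phf21a* at 2.20 was above *Rcor1* at 1.88 in 6 of 6 libraries, although their ranges overlapped. Among the scaffold genes, *Rcor3* held 67.4% to 78.5% of the summed level per kilobase of *Rcor1*, *Rcor2* and *Rcor3*, and *Rcor1* held 21.3% to 29.6%. These orders and shares depend on the length used. The exons of all annotated transcripts cover 13622 bases for *Rcor3*, against 3791 in its longest coding transcript. For *Phf21a* they cover 8561 against 6332 bases, and for *Rcor1* 5684 in both. Levels over that longer length were not computed, and the order of these genes is not settled.

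*Rcor2*, the remaining scaffold paralog, is not among the 9 genes and is described because of its values, which were seen before it was chosen. It had 7, 1 and 5 counts in Ctrl replicates 1 to 3, 35 counts in the library labelled Ctrl replicate 4, and 21 and 38 counts in the LSD1skm-/- libraries. Its level was thus high in the same 3 libraries in which *Kdm1a* was low. *Rcor2* made up 0.979%, 0.135%, 0.649% and 3.53% of the scaffold level per kilobase in Ctrl and 3.01% and 4.48% in LSD1skm-/- muscle. With a mean count of 17.8 it was below the filter, and in the fit of every row with at least 1 count its log2 fold change was 1.43 ± 0.612 (SE, edgeR adjusted p = 0.493) by the labels. That fit called 0.551% of 27041 rows, and 0.218% as higher. Without the library labelled Ctrl replicate 4 *Rcor2* rose by 2.68 ± 0.528 (SE) on the log2 scale (edgeR adjusted p = 1.75e-05), with a 95% interval of the ratio from 3.13 to 13.1, in a comparison that called 7% of those rows, and 4.29% as higher. The call was lost when LSD1skm-/- replicate 1 (adjusted p = 0.0974) or replicate 2 (adjusted p = 0.340) was left out as well, with edgeR in both cases, while the log2 fold change stayed at 2.94 and 2.35.

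The other genes around the complex were taken from 6 lists: paralogs and associated subunits, factors that recruit CoREST, the NuRD, SIN3 and MiDAC deacetylase complexes that share its enzymes, and neuronal genes known as REST or CoREST targets. Of 75 listed genes in the table, 45 were tested. By the labels 0 of 45 were called by edgeR at an adjusted p under 0.05, 3 at an unadjusted p under 0.05 and 0 by DESeq2. Against Ctrl replicates 1 to 3 alone, edgeR called 0 of 45, 6 were under 0.05 unadjusted, and DESeq2 called 3. Both shares were below those over all genes tested, 20.2% and 9.29%. In this comparison 11 of the 45 had a positive and 34 a negative log2 fold change, with a median of -0.095 beside -0.0058 over all genes tested, of which 49% were positive.

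Among the paralogs and associated subunits, 6 of 8 were tested, with a median log2 fold change of -0.070 by the labels and -0.079 without the library labelled Ctrl replicate 4. Among the factors that recruit CoREST, 7 of 12 were tested, with medians of -0.20 and -0.24. NuRD subunits (12 of 12 tested) had medians of -0.039 and -0.063, and SIN3 subunits (12 of 14 tested) had medians of -0.022 and -0.085. MiDAC subunits (2 of 3 tested) had medians of -0.069 and -0.13. Of 26 neuronal target genes, 6 had enough reads to be tested, with medians of -0.21 and -0.35, and 2 of the 6 were positive without the library labelled Ctrl replicate 4. The rest of the neuronal list had mean counts of 50 or less.

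The genes called by DESeq2 were *Rest*, *Kdm1b* and *Zeb2*, named after their values were seen. *Rest*, the zinc finger repressor that recruits CoREST to neuronal genes, was at 11.2, 9.80, 15.8 and 10.5 CPM in Ctrl and at 7.15 and 6.19 CPM in LSD1skm-/- muscle. Both LSD1skm-/- libraries were below every Ctrl library, the library labelled Ctrl replicate 4 included, which held for 8.02% of all genes tested. Among the other tested genes of the lists, it also held for *Mta2*, *Sin3b* and *Sap130*. Its log2 fold change was -0.82 ± 0.216 (SE, edgeR adjusted p = 0.557) by the labels and -0.88 ± 0.219 (SE, edgeR adjusted p = 0.0681, DESeq2 adjusted p = 0.0053) without that library. *Kdm1b*, the paralog of *Kdm1a* that encodes the demethylase LSD2, was at 11.2, 13.1, 12.3 and 8.12 CPM in Ctrl and at 9.48 and 7.07 CPM in LSD1skm-/- muscle. The library labelled Ctrl replicate 4 lay between the LSD1skm-/- libraries, and no value passed the main test (edgeR adjusted p = 0.569 by the labels and 0.102 without that library, DESeq2 adjusted p = 0.042). *Zeb2*, a repressor with zinc fingers and a homeodomain, was at 14.3, 15.9, 17.0 and 11.5 CPM in Ctrl and at 12.0 and 10.3 CPM in LSD1skm-/- muscle, again with the library labelled Ctrl replicate 4 between the LSD1skm-/- libraries. Its adjusted p without that library was 0.0909 in edgeR and 0.0333 in DESeq2. These 3 genes were lower, while the other tested genes under an unadjusted p of 0.05 in that comparison were higher. They were *Brms1l* (log2 fold change 0.37, edgeR adjusted p = 0.0886), *Zfp217* (0.41, edgeR adjusted p = 0.123) and *Mta3* (0.45, edgeR adjusted p = 0.236). By the labels, *Brms1l* and *Zfp217* lay above every Ctrl library, as 9.8% of all genes tested did.

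**Figure D4:**
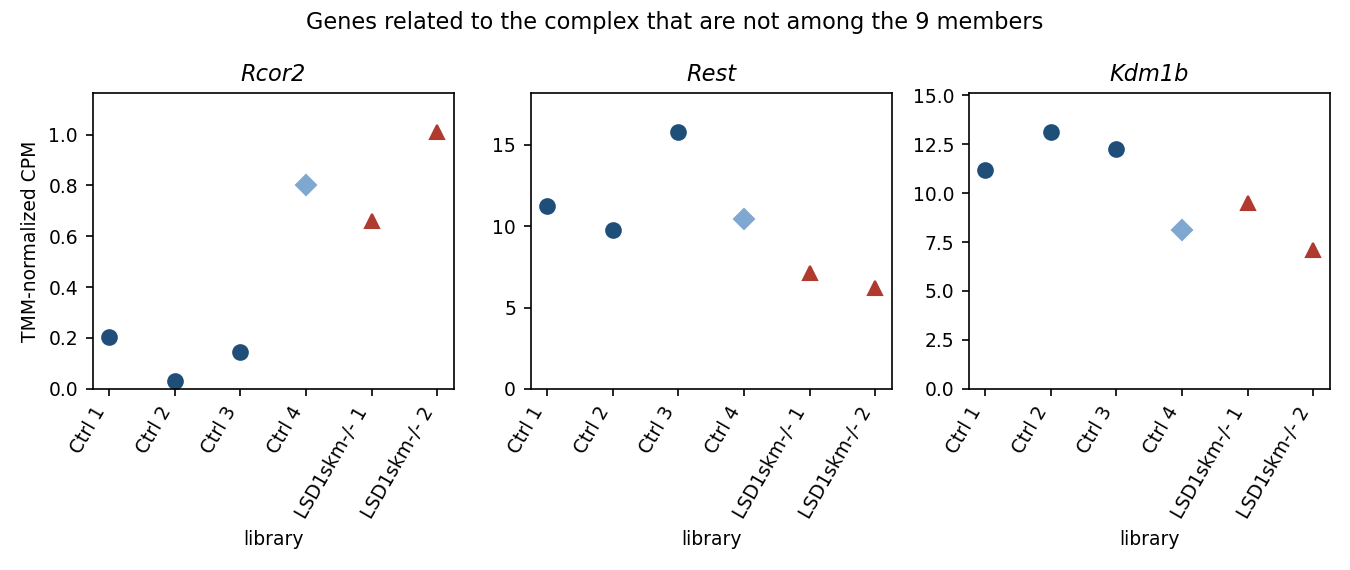
TMM-normalized CPM, from 0, of *Rcor2*, *Rest* and *Kdm1b* in each library, with circles for Ctrl replicates 1 to 3, a diamond for the library labelled Ctrl replicate 4 and triangles for LSD1skm-/- replicates. *Rcor2* is at 0.800 CPM in the diamond and at 0.662 and 1.01 CPM in the triangles against 0.0308 to 0.203 CPM in the circles, *Rest* is lowest in the triangles, and the *Kdm1b* diamond lies between the triangles.

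The genes whose pattern over the 6 libraries was closest to that of *Kdm1a* were found by the root mean square difference of log2 CPM, centred on each gene's mean. They were *Fgfbp1* (0.237), *H1f4* (0.266), *Cd28* (0.362), *Chac1* (0.506) and *H2bc6* (0.507), where the median over all genes tested was 1.43. None of these genes is a partner of LSD1 in the complex. *Fgfbp1*, which encodes a secreted carrier of fibroblast growth factors, was at 5.64, 6.56, 9.33 and 1.21 CPM in Ctrl and at 0.662 and 1.25 CPM in LSD1skm-/- muscle. *H1f4* and *H2bc6*, which encode a linker histone and a core histone, were low in the same 3 libraries, with *H1f4* at 0.572 to 0.756 CPM there and at 3.48 to 4.84 CPM in Ctrl replicates 1 to 3. *Cd28*, which encodes a costimulatory receptor of T cells, was at 0.441 to 0.638 CPM there and at 5.28 to 7.27 CPM in the others, and *Chac1*, which encodes a glutathione-degrading enzyme, at 18.6 to 30.2 against 79.2 to 122 CPM. They were chosen for this pattern, so it is a description with no test.

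**Figure D5:**
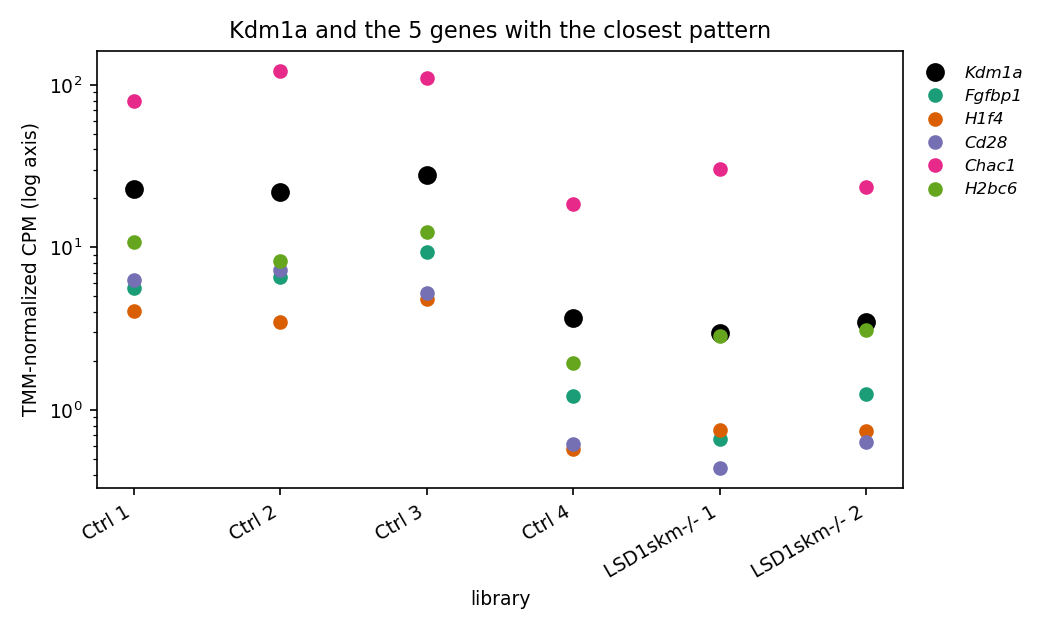
TMM-normalized CPM (log axis) of *Kdm1a* and the 5 genes with the closest pattern in each library, 1 color per gene. All 6 genes are high in Ctrl replicates 1 to 3 and low in the library labelled Ctrl replicate 4 and both LSD1skm-/- libraries.

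Markers of the cells in the muscle were summed per library, and each of the 9 lists had all its genes in the table and none at 0 in every library. Myofiber markers, which define the labelled tissue, summed to 165121 to 184631 CPM in Ctrl and 161629 and 174166 CPM in LSD1skm-/- muscle. Slow-twitch markers (8 genes) summed to 1139 to 2264 CPM in Ctrl and to 467 and 848 CPM in LSD1skm-/- muscle, and endothelial markers (7 genes) to 197 to 264 against 174 and 177 CPM. Adipocyte markers (8 genes) summed to 596 to 855 against 575 and 571 CPM, and blood markers (5 genes) to 28.2 to 52.2 against 64.1 and 65.8 CPM. The adipocyte sum rested mostly on *Plin4* and *Fabp4*, and *Adipoq*, a defining adipocyte gene, was at 12.8, 9.70, 0.783 and 19.6 CPM in Ctrl and at 0.126 and 0.558 CPM in LSD1skm-/- muscle, so that Ctrl replicate 3 stood near the LSD1skm-/- libraries. These 4 sums did not overlap between groups by the labels, where 17.8% of the single genes tested did not. Their part in the values of *Rest* or of the CoREST genes was not tested. *Plin4* and *Fabp4* each overlapped. *Plin4* was at 409 and 394 CPM in LSD1skm-/- muscle against 289 to 516 CPM in Ctrl, and *Fabp4* at 163 and 169 against 166 to 354 CPM. By the labels, fibroblast, immune, Schwann and satellite cell sums overlapped. Without the library labelled Ctrl replicate 4, the fibroblast and satellite cell sums no longer overlapped, while the immune and Schwann sums still did. In that comparison 37.7% of the single genes tested did not overlap. Fibroblast markers were then at 465 to 508 CPM in Ctrl against 646 and 765 CPM in LSD1skm-/- muscle. Satellite cell markers were at 32.6 to 37.9 against 45.9 and 42.0 CPM. The library labelled Ctrl replicate 4 had the highest adipocyte, endothelial, Schwann and satellite cell sums, with 166 CPM for Schwann and 46.0 CPM for satellite cell markers.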

How the data were processed

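PolyA RNA of mouse skeletal muscle was sequenced as single-end reads of 50 bases. The authors mapped reads to mm10, kept uniquely aligned reads and deposited whole-number counts per gene symbol, not normalized. The paper names htseq-count and HOMER but no aligner, and bcl2fastq 2.20.0.422 is listed in the submitters' processing notes. All columns of the table belonged to the 6 libraries, and 29 rows share a symbol with another row. Genes with a mean count above 50 were tested (11364 of 27041) with edgeR 4.0.16 in R 4.3.3, using TMM scaling, condition as the only term, the quasi-likelihood test and Benjamini-Hochberg adjustment over all genes tested. Standard errors were derived from the fold change and the F statistic. DESeq2 1.42.0, other scalings and filters, a replicate block and fits without each library were the alternatives. Ratios within libraries had 0.5 added to each count. Positions and transcripts came from GENCODE vM21 (GRCm38). The script was tested on simulated data. No pair of libraries agreed within sampling noise, so none was treated as a repeat. Pairs were compared by chi-square per degree of freedom over all genes tested, where a smaller value means closer counts. The library labelled Ctrl replicate 4 was at 32.9 and 46.5 from LSD1skm-/- replicates 1 and 2. It was at 67.8 to 95.4 from Ctrl replicates 1 to 3, which were at 33.2 to 40.8 from each other. The cause was not tested. The number of LSD1skm-/- libraries limits the precision, and for genes near 50 counts counting error adds to it.

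The 9 genes and all lists were chosen with earlier results of these data known. Named genes were the 9 genes, any gene of the other lists past an adjusted p of 0.05 (at most 4 per list) and the 5 genes closest to *Kdm1a*. No gene of the other lists met that rule in the edgeR fit with the count filter, and those named were chosen after their values were seen.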

Additional observations from a re-analysis of the deposited data

Results flagged for a closer look

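Among 4 Ctrl libraries, *Kdm1a* on the log2 CPM scale had 1 library far from the others, the library labelled Ctrl replicate 4, whose gap to its nearest neighbour was 0.88 of the whole range, above Dixon's 95% critical value for 4 samples. The same library stood apart in *Cd28* (0.87) and *H1f4* (0.84), which had been chosen for their likeness to *Kdm1a* and so add no independent observation. These were 3 of 21 genes examined in this way, beside 2 ratios that did not stand out, and chance flags about 1 in 20. On the linear CPM scale the gaps were 0.750 for *Kdm1a*, 0.700 for *Cd28* and 0.682 for *H1f4*, all under the critical value. None of the 8 partners was among them. The cause was not tested.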

How the results depend on the processing

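In the comparison by the labels, the count of called genes among the 9 was 0 and became 1, *Kdm1a*, with no filter on counts, with the replicate block, without Ctrl replicate 4, at an unadjusted p under 0.05 and with the fold limits of 1.3 and 0.77 added. *Kdm1a* was then at -2.58 (edgeR adjusted p = 0.00414) with no filter and at -2.80 (edgeR adjusted p = 3.63e-07) with the replicate block. The block fit gives Ctrl replicates 3 and 4, which have no LSD1skm-/- library of the same number, no part in that difference. It rests on replicates 1 and 2 of each group. Leaving out 1 library gave -2.91 to -2.32, and only the fit without Ctrl replicate 4 passed. Where 1 LSD1skm-/- library was left, it was assumed to vary like the Ctrl libraries. Without Ctrl replicate 4, *Kdm1a* was called under every alternative.

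The replicate numbers are not said to mark anything shared, and deviations of same-numbered libraries correlated at -0.23 and -0.033. With the block, genes called over the whole table went from 0 to 632 by the labels and from 612 to 729 without Ctrl replicate 4. No filter gave 149 and 1894, and DESeq2 46 and 1056.

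Without Ctrl replicate 4, the count of called genes in the other lists was 0 and became 3 in DESeq2, 5 with no filter (*Rest*, *Kdm1b*, *Zeb2*, *Rcor2* and *Gdap1*), 1 with filterByExpr (*Rcor2*, adjusted p = 0.0455), 1 with the replicate block (*Rest*, adjusted p = 0.049) and 1 without Ctrl replicate 2 (*Rest*, adjusted p = 0.0388). Leaving out 1 library gave 0 to 1. By the labels, *Rcor2* passed with the block at 2.79.

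No partner was called under any alternative, but values near 0 changed sign. By the labels, leaving out 1 library gave -0.022 to 0.33 for *Rcor1*, -0.027 to 0.088 for *Hdac2*, -0.13 to 0.14 for *Phf21a*, -0.16 to 0.11 for *Zmym2* and -0.22 to 0.21 for *Gse1*. Without Ctrl replicate 4, the ranges were -0.42 to 0.024 for *Hdac1*, -0.021 to 0.091 for *Hdac2*, -0.059 to 0.21 for *Phf21a*, -0.19 to 0.083 for *Zmym2* and -0.29 to 0.15 for *Gse1*. Scaling by library size gave 0.024 by the labels and 0.028 without Ctrl replicate 4 for *Zmym2*, and 0.025 in the latter for *Gse1*, where the replicate block gave 0.015. By the labels, *Gse1* was at -0.0020 with no filter. The log2 ratio of *Hdac1* to *Hdac2* differed by -0.43 to 0.0037 by the labels and by -0.46 to 0.0023 without Ctrl replicate 4 when 1 library was left out. The causes were not tested. Of the 5 genes closest to *Kdm1a*, 5 stayed under other scalings and 2 to 5 when 1 library was left out, alternatives added after seeing the data.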
